A study of Piriqueta cistoides subsp. caroliniana with 18 samples.

Results

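The features described here are 46 probes without a gene name whose deposited log ratios lay below 0 for drought against well-watered plants on every direct comparison, in all 3 morphotypes of a perennial herb. They were chosen from 9600 probes by their values on the 6 arrays that set drought against watering directly within 1 morphotype. A probe was kept when all 6 drought values were present and below 0 and their mean was -0.25 or less. It also had to have no entry in the table of soybean genes for the array and a number outside 5602 to 6120, a stretch of the array crowded with probes on the positive side. Of the 7505 probes with all 6 values, 52 met the value conditions (0.693%), and 5 of these had a gene entry and 1 lay in the stretch, which leaves the 46. These 6 arrays therefore describe the probes and cannot test them.

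Leaf RNA came from Piriqueta cistoides subsp. caroliniana. The morphotypes caroliniana, viridis and hybrid were each kept well-watered or taken through 4 cycles of drought over 36 days, with 3 plants in each of the 6 groups. The plants were cuttings grown in sand in a greenhouse. Their age and the number of source plants are not given in the sources used here, so p-values measure only the spread between these plants and arrays. The 18 plants were hybridised in pairs on 18 two-colour arrays that form 1 closed loop, each plant once in each dye, and plants are named here by the codes of the labels, so that H2W is well-watered plant 2 of the hybrid and C1D is drought plant 1 of caroliniana.

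Drought in a leaf is known to set off signalling through the hormone abscisic acid, which closes stomata, and to alter the transcripts of photosynthesis, growth and protective proteins. Spotted cDNA arrays measure such changes as a ratio of fluorescence between a pair of samples on the same spot. The clones on these arrays came from soybean, so each value reflects hybridisation across species, and a weakly matching clone can give a smaller ratio than the transcript's true change. No sequence of the clones was used here. What the transcripts encode is thus not known for any of the 46, and no pathway list could be applied to them.

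A drought value is the log ratio turned so that it reads drought minus well-watered, taking Cy5 as the numerator. Neither the direction nor the base of the logarithm is stated in the files. A value below 0 means less transcript under drought on this reading and more on the opposite one, so the text speaks of values below or above 0. All 46 probes are described in log-ratio units. Arrays held values for 5962 to 8134 probes, the fewest for the array of H3W and C1W, and the number of arrays limits the precision. The submitters marked the array of H2D and V3D as bad. Of the 5 leaf markers considered, 2 had probes on the array, but ratios give no level, so the tissue could not be checked by them.

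The mean drought values of the 46 probes ran from -1.70 to -0.25 with a median of -0.36, and 13 probes had a mean below -0.50. Gm03935 had the lowest mean, -1.70 ± 1.04 (SD over 6 arrays). Its values were -0.73 (C1D with C2W) and -2.72 (C2D with C1W) in caroliniana, -2.48 (H1D with H2W) and -2.71 (H2D with H1W) in the hybrid, and -0.68 (V1D with V2W) and -0.85 (V2D with V1W) in viridis. Both hybrid arrays and 1 caroliniana array thus lay far below the other 3, so that the spread within caroliniana was as wide as that between morphotypes. Its mean is a 3.24-fold difference if the base of the logarithm is 2 and a 5.45-fold difference if it is e.

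Gm04675 came next with -1.09 ± 0.550. In the same order of arrays it had -1.06 and -0.76 in caroliniana, -0.82 and -1.62 in the hybrid and -1.85 and -0.40 in viridis. The lowest and the highest value both came from viridis, so the morphotypes overlapped throughout. For Gm07161 (mean -0.93 ± 0.396) the values were -0.85 and -0.59, -1.59 and -0.62, and -1.23 and -0.74. Every value of these 3 probes was at or below -0.40, which also holds for the pair Gm04464 and Gm04508 described further on and for Gm00631.

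Gm06670 had a mean of -0.80 ± 0.512 with values of -0.74 and -0.78, -1.62 and -1.01, and -0.55 and -0.07. Here the hybrid lay lowest and 1 viridis array was close to 0. Gm10703 had -1.10 and -0.38, -0.61 and -0.57, and -0.86 and -0.32, and Gm00631 had -0.48 and -0.47, -0.44 and -0.92, and -0.99 and -0.47. Neither of the last 2 probes separated the morphotypes. The values of Gm05277 were -1.13 and -0.17, -0.69 and -0.44, and -0.92 and -0.41. In this probe each morphotype was lower on the array that carried the drought plant in Cy3. The same held for Gm07161, Gm10703, Gm16509 and Gm08637, among others.

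The next 6 probes had means of -0.60 to -0.48. Gm05264 had -0.51 and -1.16, -0.72 and -0.61, and -0.46 and -0.12, with viridis the weakest. Gm07138 had -0.19 and -0.46, -1.27 and -0.60, and -0.53 and -0.53. Gm03599 had -0.51 and -0.05, -1.70 and -0.51, and -0.10 and -0.65, and Gm16509 had -0.53 and -0.43, -1.65 and -0.12, and -0.36 and -0.34. In the last 3 probes the array of H1D and H2W stood well below the other 5, and the mean rests in part on it. Gm08637 (-0.27 to -0.80 over the 6 arrays) and Gm03163 (-0.14 to -0.77) had no single array of this kind.

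The other 31 probes had means of -0.45 to -0.25, and many of their single values were close to 0. Over all 46 probes the median of a probe's highest value was -0.11 and of its lowest -0.72. All 6 values were at -0.20 or below for 9 probes and at -0.10 or below for 26. The lowest of the 6 values lay on the array of H1D and H2W for 13 probes, on that of V1D and V2W for 10, on that of C1W and C2D for 7, on that of C1D and C2W for 6, and on each of the other 2 for 5. With the drought plant in Cy3 the median value was -0.45, and with the drought plant in Cy5 it was -0.33, a contrast that also differs in the plants.

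**Figure D1:**
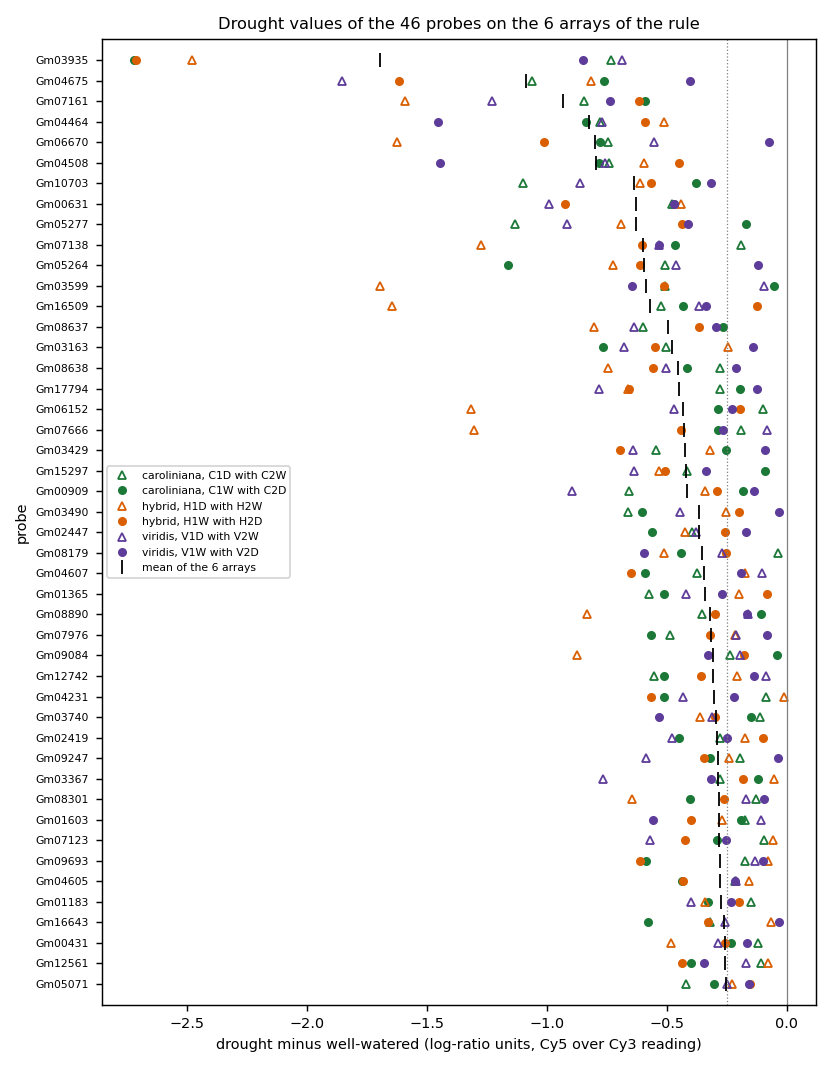
Drought value (x axis, log ratio of drought minus well-watered plant) of each of the 46 probes (y axis, ordered by mean) on the 6 arrays used by the rule. Colours mark the morphotype, circles a drought plant in Cy5 and triangles a drought plant in Cy3, the black tick is the mean, and the dotted line is the limit of -0.25. The means run from -1.70 for Gm03935 to -0.25 for Gm05071, and the array of H1D and H2W stands apart to the left for several probes.

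The limit of -0.25 cuts through a continuous range. Just inside it lay Gm12561 (-0.256 ± 0.157) and Gm05071 (-0.251 ± 0.0996), and just outside it Gm12947 (-0.2498 ± 0.123) and Gm10115 (-0.238 ± 0.0793), all with 6 values below 0. A further 37 unnamed probes outside the stretch had a mean of -0.25 or less and 5 of 6 values below 0. The 1 exception among the 6 values lay on the array of C1W and C2D for 13 of them and on that of H1W and H2D for 12.

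By morphotype, the median over the 46 probes of the mean of both arrays was -0.43 in the hybrid, -0.37 in caroliniana and -0.35 in viridis, against -0.03, -0.02 and -0.01 over all 7505 probes. The hybrid had the lowest mean for 20 probes, caroliniana for 14 and viridis for 12. The widest range between morphotypes was that of Gm03935, with -2.60 in the hybrid, -1.73 in caroliniana and -0.77 in viridis, followed by Gm06670 with -1.32, -0.76 and -0.31 in the same order. At the other end Gm12561 had -0.25, -0.26 and -0.26 in caroliniana, hybrid and viridis. Each of these morphotype values rests on 2 arrays, and they describe the choice as well as the probes.

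In the fit to all 18 arrays the averaged drought effect of the 46 probes had a median of -0.38 and ran from -1.67 to -0.23. Of the 7880 probes tested in that fit, 35 were called on the negative side (0.444%), and 20 of them were among the 46. This contrast is the one the rule used, so nothing is read from the count.

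The probes with a gene name that met the same value conditions were 5 of the 450 with 6 values (1.11%), against 46 of 6847 unnamed probes outside the stretch (0.672%). All 5 means were weaker than that of Gm08637. LOC547634 (Gm02842) had a mean of -0.44 ± 0.377, with -0.37 and -0.44 in caroliniana, -1.15 and -0.44 in the hybrid and -0.05 and -0.21 in viridis. LOC548038 (Gm17350) had -0.43 ± 0.329, LOC547870 (Gm04271) -0.30 ± 0.0997, DR1 (Gm08495) -0.27 ± 0.0956 and LOC547639 (Gm09201) -0.25 ± 0.181. LOC547870 and DR1 were the most even of these, with ranges of -0.44 to -0.16 and -0.38 to -0.15. On the opposite side of 0 lay CAB3, an antenna protein that binds chlorophyll for light harvesting, with 1.23 to 2.47 for Gm05985. CHLH, part of the magnesium chelatase that makes a chlorophyll precursor, lay there too, with 0.45 to 1.37 for Gm06139. Another CHLH probe, Gm06047, had 0.181 to 1.021, and another CAB3 probe, Gm06115, had 1.544 to 2.455. The CAB3 probes Gm01099 and Gm05769 lacked values on both hybrid arrays and lay above 0 where present. Gm05985, Gm06115, Gm05769 and Gm06047 lie in the stretch. Positive mirror images of the rule (all 6 above 0, mean of 0.25 or more) numbered 66 among the unnamed probes outside the stretch.

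Along the probe numbers, 39 of the 46 were numbered up to 10000, where they made up 0.975% of 4002 unnamed probes with 6 values, and 7 lay above it, where they made up 0.246% of 2845. The division at 10000 was set after the numbers were seen, so it carries no test. Probes with all 6 drought values below 0, whatever their mean, made up 4.85% up to 10000 and 4.67% above it. The median SD of a probe over the 12 other arrays was 0.171 and 0.178. In fixed blocks of 2000 numbers the highest share was 1.32%, between 4001 and 6000, where 9 of 680 probes lay. Part of this block falls in the stretch that the rule leaves out. What order the numbers follow is not given in the sources used here.

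**Figure D2:**
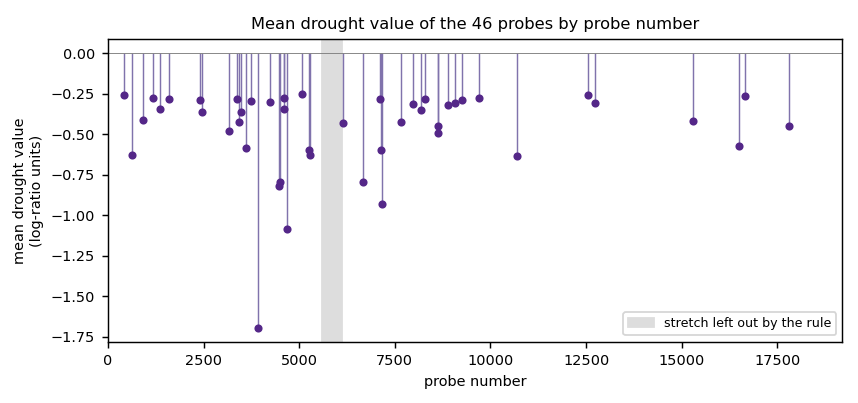
Mean drought value (y axis, log-ratio units) of each of the 46 probes against its probe number (x axis, the 5 digits of its name), with the stretch left out by the rule shaded. A total of 39 points lie at numbers up to 10000 and 7 above, and the lowest point is Gm03935 at -1.70.

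Over the 12 arrays that pair plants of 1 treatment, which the rule did not use, the 1035 pairs of the 46 probes had a median correlation of 0.15. It was 0.80 or more for 33 pairs (3.19%) and -0.50 or less for 105 (10.1%). Over all pairs of the 5491 probes with complete values the median was 0.031, and the shares were 1.80% and 13.4%. The highest was 0.942 between Gm04464 and Gm04508 (12 arrays). Their drought values also nearly coincided. Gm04464 had -0.78 and -0.84 in caroliniana, -0.51 and -0.59 in the hybrid and -0.77 and -1.45 in viridis, and Gm04508 had -0.74 and -0.78, -0.60 and -0.45, and -0.76 and -1.45. They differed by at most 0.142 on the 6 drought arrays and by at most 0.506 on the other 12. In both probes 1 viridis array was the lowest and the hybrid was the weakest.

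Gm04605 and Gm04607, 2 numbers apart, correlated at 0.881, but Gm04607 swung further on most arrays, with differences of up to 0.533 on the 12 arrays and 0.218 on the 6. The directly neighbouring Gm08637 and Gm08638 correlated at 0.534, rank 187 of the 1035 pairs. Their median difference on the 12 arrays was 0.116, against 0.166 for Gm04464 and Gm04508 and 0.182 for Gm04605 and Gm04607. Their largest difference, 0.884, lay on the array of H3W and C1W, with 0.323 and -0.561. Only 2 pairs of the 46 were at most 2 numbers apart. Other high pairs were Gm04231 with Gm03367 (0.917) and Gm05277 with Gm01365 (0.911). All these correlations share the arrays, and the 12 arrays carry 1 dominant pattern that held 44.0% of the variance over all probes, with its heaviest weight on the array of H2W and V3W. Of the 46 probes 9 correlated with it at 0.80 or more and 1, Gm04464, at -0.80 or less, against 9.74% and 5.18% of all tested probes. Whether similar probes carry the same transcript was not tested.

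**Figure D3:**
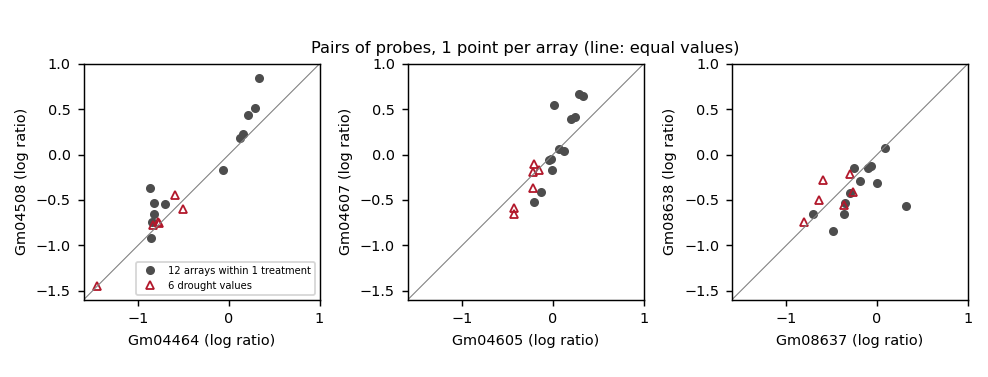
Log ratios of 3 pairs of probes, 1 probe on each axis, with a filled circle for each of the 12 arrays within 1 treatment and an open triangle for each of the 6 drought values. The line marks equal values. Gm04464 and Gm04508 follow it most closely on the drought arrays, and Gm04607 has a steeper slope than Gm04605. The point furthest from the line is that of Gm08637 and Gm08638 on the array of H3W and C1W.

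The 12 arrays within 1 treatment compare morphotypes, and their values were not used to choose the probes, although 12 of the 18 plants lie on both kinds of array. On 2 of these arrays neither plant lay on an array of the rule. On the array of H3D and V3D, 39 of the 46 probes had a value below 0 for H3D minus V3D (84.8%, against 54.7% of all tested probes), with a median of -0.20 against -0.02 over all probes. The lowest values were -1.39 for Gm06670, -0.97 for Gm04675 and -0.73 for Gm00631, and Gm04508 had the highest, 0.22. On the other, of H3W and C3W, 25 of 46 lay below 0 (54.3%, against 41.6%), with a median of -0.06 against 0.05. Each is a single array of 1 plant against another, so there is no replicate check.

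On the other 10 arrays the probes' median lay within 0.162 of the median of all tested probes. The widest gap was that of V3W minus H2W, with -0.10 against 0.06, where values ran from -1.25 to 0.66. H1W minus V3W had a median of 0.09 against 0.04 and V3D minus H2D 0.003 against 0.04. H2W, H1W and H2D are plants of the rule. Whether a plant that was high or low on an array of the rule carried part of that to its other array was not tested. The measured SD of a probe over the 12 arrays had a median of 0.25 among the 46, against 0.177 over all tested probes. This SD holds differences between plants, morphotypes and dyes as well as measurement error, and these were not separated.

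**Figure D4:**
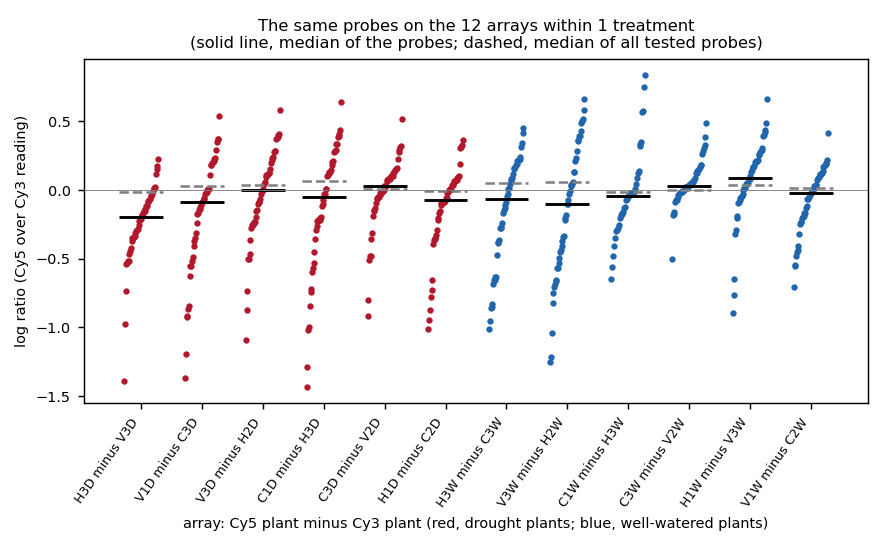
Log ratio (y axis) of each of the 46 probes on the 12 arrays that pair plants of 1 treatment (x axis, Cy5 plant minus Cy3 plant), sorted by value within each array. Red marks drought plants, blue well-watered plants, the solid line the median of the 46 and the dashed line that of all tested probes. On the array of H3D and V3D 39 of 46 points lie below 0, and elsewhere the probes spread to both sides of 0.

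Tests of the morphotypes used these 12 arrays, with limma, a dye term and the plant as a random effect, over 7836 probes, all 46 included. Some direct comparisons rest on a single plant of 1 morphotype. V3D is on both drought arrays of hybrid and viridis, and V3W on both well-watered ones. C3D is on both drought arrays of caroliniana and viridis, and H3W on both well-watered arrays of caroliniana and hybrid. Leaving out such a plant removes every direct array of that pair in that treatment. For viridis minus caroliniana over both treatments none of the 46 passed an adjusted p of 0.05, and 0% of all probes were called. At an unadjusted p of 0.05, 6 of the 46 passed (13.0%, against 6.87% of all probes). The closest were the 2 similar probes, Gm04464 at -0.51 ± 0.0998 (SE, adjusted p = 0.290) and Gm04508 at -0.54 ± 0.146 (adjusted p = 0.690), both below 0. Without C3D the value of Gm04508 was -0.31. Gm04464 was -0.40 ± 0.141 among drought plants and -0.62 ± 0.141 among well-watered plants, and the former was -0.11 without C3D. Across the 46 the median difference was -0.01 with 19 above 0, against 0.01 and 55.1% above 0 over all probes. Without C3D this median was 0.03 with 27 above 0, against 0.01 and 53.9% over all probes.

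The hybrid differed from its parents in no probe past the threshold. Hybrid minus caroliniana, hybrid minus viridis and hybrid minus the mid-parent value called 0 of the 46 and 0% of all probes. At an unadjusted p of 0.05 they had 1, 5 and 2 of the 46, against 3.18%, 11.7% and 6.79% of all probes. The smallest p values belonged to Gm03935 and Gm04464 for the mid-parent comparison, with 0.41 ± 0.135 (adjusted p = 0.676) and 0.21 ± 0.0887 (adjusted p = 0.711), both above 0. Without V3W these were 0.13 and 0.05, with 0.64 for Gm03935 without C3W and 0.39 for Gm04464 without H3W. Against caroliniana Gm03935 had 0.44 ± 0.158 and Gm03429 -0.18 ± 0.0838 (adjusted p of 1 for both), and against viridis Gm04464 had 0.47 ± 0.102 (adjusted p = 0.248) and Gm03935 0.39 ± 0.146 (adjusted p = 0.376). Without V3W the values against viridis were 0.25 and 0.05, and Gm03935 against caroliniana was 0.20 without V3W and 0.75 without C3W. Within drought, viridis minus caroliniana called 0 of the 46 and 0% of all probes. At an unadjusted p of 0.05 it had 2 of the 46 (4.35%, against 2.31% of all probes). Besides Gm04464 the smallest p was that of Gm03935 at 0.51 ± 0.197 (adjusted p of 1), which ran from 0.34 without V3D to 0.82 without C3D. Within the well-watered plants it called 0 of the 46 and 4 of all probes (0.051%), with 4 of the 46 at an unadjusted p of 0.05 (8.70%, against 6.41% of all probes), and Gm03429 had -0.39 ± 0.116 (adjusted p = 0.746).

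**Figure D5:**
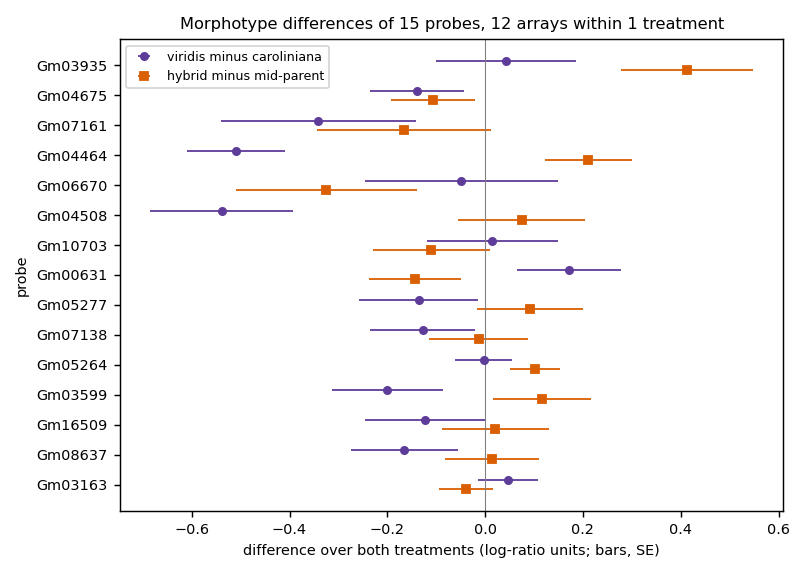
Estimated difference over both treatments (x axis, log-ratio units, bars are SE) for the 15 probes with the lowest mean drought value, from the 12 arrays within 1 treatment. Circles show viridis minus caroliniana and squares hybrid minus the mid-parent value. Gm04464 and Gm04508 lie furthest to the left at -0.51 and -0.54 and Gm03935 furthest to the right at 0.41, and none passed the adjusted threshold.

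The same 12 arrays give the differences between morphotypes in the drought effect, since each morphotype pair was compared in both treatments. Every pair has a treatment in which both direct arrays share a plant (V3D, V3W, C3D or H3W). The F test of this interaction called 0 of the 46 and 0% of all probes, with 4 of the 46 at an unadjusted p of 0.05 (8.70%, against 3.92% of all). Gm03935 had F = 5.49 (adjusted p = 0.948), with a drought effect 0.94 ± 0.288 higher in viridis than in caroliniana and -0.52 ± 0.292 for hybrid minus viridis. Its F ran from 2.52 with no dye term to 8.68 without H3W. Gm04675 had F = 4.75 (adjusted p = 0.948), with -0.54 ± 0.197 for hybrid minus caroliniana and -0.53 ± 0.198 for hybrid minus viridis. Its F ran from 1.38 in the fit to all 18 arrays, which holds the arrays that chose the probes, to 7.95 with the replicate block.

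Over the 46 probes the hybrid's drought effect minus that of viridis had a median of -0.14, with 12 of 46 above 0, against a median of -0.03 and 43.0% above 0 over all probes. The SE of a single probe had a median of 0.189, larger than this median. Without V3D, which lies on the array marked bad, the median was -0.07 with 20 of 46 above 0, against -0.04 and 42.7% over all probes. Without V3W it was -0.09 with 18 of 46 above 0, against -0.06 and 41.7% over all probes. In both fits the 46 thus lay nearer to all probes. With only the array marked bad left out the median was -0.16 with 13 of 46 above 0, against -0.04 and 41.3% over all probes. Hybrid minus caroliniana had -0.10 (15 of 46 above 0), against -0.05 and 40.1% above 0 over all probes. It ran from -0.175 without C3W to -0.0381 without C3D, where the medians of all probes were -0.047 and -0.0488. Viridis minus caroliniana had 0.02 (24 of 46 above 0), against -0.01 and 45.9% over all probes, and turned to -0.03 without V3D and had 0.159 without C3D. These medians thus depended on single plants, and a miss of the threshold does not show that the morphotypes responded alike.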

How the data were processed

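Each array has 1 deposited log ratio per probe, possibly log2, the customary base for two-colour data. Whether the ratios were turned into log2 values before they were deposited is not stated in the sources used here. They were used as deposited, without assuming log2, and effects are given in log-ratio units. Neither the direction nor the authors' normalization is stated in these sources. Per the labels' protocols, RNA was amplified, reverse transcribed and labelled with Cy3 and Cy5. No missing value was imputed, and arrays were used without further centring or scaling. The platform annotation that gave gene symbols has an entry for 552 probes, 546 of them with 1 symbol.

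The probes, lists and tests were chosen with earlier results of these data known. Tests used the 12 arrays within 1 treatment and probes with values on at least 9 of them, fitted by generalised least squares with a dye intercept and 4 morphotype differences. The plant entered as a random effect, with a variance of 0.25 relative to arrays (restricted maximum likelihood, 5491 complete probes). limma 3.58.1 in R 4.3.3 moderated the variances (7 residual and 3.71 prior degrees of freedom), and p-values are two-sided with Benjamini-Hochberg adjustment over all probes. The fit was tested on simulated data. Alternatives were other normalizations, filters, limits of the rule, no dye term, a replicate block, independent arrays, all 18 arrays, the array marked bad left out, and each plant left out. A fit without both H2W and V3D was added and had not been planned. The 18-array fit required values on at least 14 arrays. Probes named in the text are the 15 with the lowest mean, those beside the limit, the 2 with the smallest p per test, those with the widest range between morphotypes, and neighbours by number. The most alike pairs, the array of H3D and V3D, and Gm12561 as the most even probe were singled out after their values were seen.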

Additional observations from a re-analysis of the deposited data

Results flagged for a closer look

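A probe was singled out when 1 of its 6 drought values stood apart from the rest, the gap to the nearest other value, as a share of the whole range, exceeding Dixon's critical value for 6 values. This held for 9 of the 46 probes (19.6%) and for 8.29% of the 7505 probes with 6 values, where chance marks about 1 in 20. These are the 6 values that chose the probes, and 1 very low value helps a probe to a mean of -0.25, so nothing is read from the difference. On the array of H1D and H2W the value was -1.70 for Gm03599, -1.65 for Gm16509, -1.31 for Gm06152, -1.30 for Gm07666, -0.83 for Gm08890 and -0.87 for Gm09084, with the nearest other values between -0.65 and -0.33. On the array of V1W and V2D it was -1.45 for Gm04464 and -1.45 for Gm04508 (-1.451 and -1.445), the similar pair. On the array of V1D and V2W it was -0.77 for Gm03367. The other array of H2W read V3W minus H2W and had -0.57, -0.45, -1.25, -0.68, -0.10 and -0.34 for the 6 probes in the order given, all below 0. The other array of H1D read H1D minus C2D and had -0.87, -0.73, -0.95, -0.78, -0.36 and -0.33 in the same order, also all below 0 and lower than the former for 4 of the 6. On each of these 2 arrays 58.7% of the 46 lay below 0, against 42.3% of all tested probes for V3W minus H2W and 50.8% for H1D minus C2D. The 6 probes were picked by a low value of H1D minus H2W, so nothing is read from these signs. The part of either plant in these values was not tested.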

How the results depend on the processing

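The number of probes meeting the rule was 46, and 42 after arrays were centred on their medians (all among the 46), 55 after scaling to 1 median absolute deviation, 64 with a mean of -0.20 or less and 32 with a mean of -0.30 or less. The number rose to 102 with no condition on single values. With the sign of all arrays turned, 66 other probes met it, and 0 of these were among the 46. Chosen after seeing the data, the rule without the array of H1D and H2W gave 54, of which 42 were among the 46. The count of the 46 past the threshold stayed at 0 in all 7 morphotype and interaction tests under each of 28 alternatives. Of these, 18 left out 1 plant, and 1 that had not been planned left out both H2W and V3D. Not all were separate fits, since leaving out a plant drops its arrays. The fit without C2D equalled that without H1D, and the fit without C2W that without V1W. The fit without H2D equalled that without the array marked bad. The alternative with all 18 arrays holds the 6 arrays that chose the probes, so it is no separate check. All 46 were tested in each alternative but that of probes with all 12 values, which held 36 of the 46 and not Gm03935. The replicate block for plant number also called 0 of the 46 in each of the 7. The numbers are not stated to pair the plants, and same-numbered plants correlated between -0.696 and 0.617 in their deviations (45 pairs, median -0.102), with 6 of 18 plants closest to 1 of their own number. Over all probes the 4 calls for viridis minus caroliniana among well-watered plants ran from 0 to 8 (8 without C1D), against 0 to 16 for the interaction (16 without H2W), 0 to 8 for the hybrid against viridis and against the mid-parent value (8 without C3D) and 0 to 5 for viridis minus caroliniana over both treatments (5 without C1D). For Gm04464, viridis minus caroliniana ran from -0.597 to -0.362 (adjusted p from 0.131 to 1). The median averaged drought effect of -0.38 ran from -0.401 to -0.342 with 1 plant left out, and all 46 stayed below 0, a direction that the choice fixes. Signal over background is unknown, since channel intensities were not used here.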

Other observations

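The averaged drought fit called 30 unnamed probes outside the stretch on the negative side, and 10 of them did not meet the rule. Gm16162 had a mean of -0.55 over its 6 drought values but 0.18 on the array of H1D and H2W. Gm08180 had -0.56 with 0.17 on the array of C1W and C2D, and Gm01534 had -0.50 with 0.01 on that of V1W and V2D. For Gm05467, Gm08698 and Gm10404 a drought value was missing. Gm02469 had 6 values between -0.24 and -0.15, the most even of the 10, and a mean of -0.19. These probes were chosen after their values were seen.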
